A study of Rattus norvegicus with 9 samples.

Results

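The Nr4a genes encode a family of orphan nuclear receptors with 3 members, Nr4a1 (Nur77, NGFI-B), Nr4a2 (Nurr1) and Nr4a3 (NOR-1). Their transcripts were followed in zona glomerulosa cells, which make aldosterone in the outer rim of the adrenal cortex and were isolated fresh from rats. Every probe set of the Affymetrix Rat Genome 230 2.0 array whose annotation gave a member as its only gene symbol was taken, which gave 6 probe sets of the 31042 that were not controls, and 3 of 14217 named genes. Nr4a1 had 1 probe set, Nr4a2 had 2 and Nr4a3 had 3, and all 6 passed the filter on dim probe sets. Cells dispersed with enzymes and by mechanical means were kept for 2 h at 37 °C in DMEM:F12 medium with fatty acid free albumin. They received no stimulus (control), angiotensin II (Ang II) at 100 nM, or potassium, which was given at 16 mM. Each of 3 independent cell preparations supplied 1 tube of each kind, and each tube was measured on 1 array, so the study held 9 arrays, 3 per group. Strain, age and sex of the rats were not given in the sources used here.

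Nr4a receptors are immediate early genes: they are transcribed soon after a cell is stimulated. No hormone is known to be required for their activity. What they do depends on the amount of the protein and on its partners and modifiers, and only RNA was measured here. The receptors bind as monomers to the NBRE element of DNA, and with RXR partners some of them also bind as dimers. In the adrenal cortex they are known as activators of steroid enzyme genes, among them aldosterone synthase and 3-beta-hydroxysteroid dehydrogenase. Calcium and cyclic AMP signals drive their promoters through CREB at cyclic AMP response elements (CRE) and, for Nr4a1, through MEF2.

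To show where such elements could lie, promoter windows were taken from RefSeq (build GRCr8). The table held windows for Nr4a1 and Nr4a2, and Nr4a3 was not in it. Each window is the 250 bases before the listed start site, 5′ to 3′, with every match to the short CRE motif CGTCA, on either strand (TGACG), in capitals. The Nr4a1 window lies at chr7:134259888-134260137 on the + strand and the Nr4a2 window at chr3:62104888-62105137 on the - strand.
Nr4a1: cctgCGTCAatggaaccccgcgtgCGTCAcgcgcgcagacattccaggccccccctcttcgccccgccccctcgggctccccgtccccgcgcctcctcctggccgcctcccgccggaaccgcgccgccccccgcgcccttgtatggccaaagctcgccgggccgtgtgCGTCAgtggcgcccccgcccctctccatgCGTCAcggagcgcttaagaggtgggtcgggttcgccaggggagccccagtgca
Nr4a2: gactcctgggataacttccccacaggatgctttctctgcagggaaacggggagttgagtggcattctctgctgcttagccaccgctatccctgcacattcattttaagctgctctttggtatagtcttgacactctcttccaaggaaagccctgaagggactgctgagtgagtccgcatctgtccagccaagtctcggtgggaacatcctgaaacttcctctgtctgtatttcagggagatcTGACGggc
The listed starts lie 12985 bases (Nr4a1) and 11039 bases (Nr4a2) inside the outermost span of their genes, so these genes extend upstream of the windows shown, and whether the windows are the promoters used in these cells is not known. The Nr4a1 window had a GC content of 74.8% and held 4 matches to the short motif, which begin 246, 226, 82 and 53 bases before the start. Of 33469 promoters of the same length, 18.2% held at least 1 match and 58 (0.173%) held 4 or more. These promoters were not matched to the Nr4a1 window for GC content. The Nr4a2 window (52.0% GC) held 1 match, 8 bases before its start. The full palindrome TGACGTCA, present in 1.59% of promoters, was in neither window, and neither were the NBRE (AAAGGTCA, or TGACCTTT on the other strand, 1.24%), the MEF2 site (0.523%) and the serum response element (1.497%), each searched on both strands. Only exact matches were counted. The MEF2 and serum response patterns allowed only A or T in their middle, so near matches to them were not found by this search. A match describes letters only.

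The deposited signals had a trimmed mean of 500 on every array. Signals were compared as log2(signal + 16) with limma, with the preparation as a block, over the 18625 probe sets above the filter, and p-values were Benjamini-Hochberg adjusted over all of them. Fold changes are on that scale, and their precision is limited by the number of arrays. Markers of the cell were present: 7 of 8 listed zona glomerulosa markers were measured and all 7 passed the filter, with summed signals of 49520 to 53380 in controls, 50276 to 53542 after Ang II and 50689 to 56027 after potassium. Hsd3b1 and Dab2, with control means of 25199.5 and 11700, made up most of these sums, which say little of the other markers. Kcnk9 was dim, with means of 105 in controls, 103 after Ang II and 74.4 after potassium. The last lies below the filter level of 81.9. Aldosterone synthase, the defining enzyme, was not analysed here. Markers of other cells were also present, with 3 of 3 measured markers above the filter for zona fasciculata, 5 of 6 for medulla (Slc18a1 was below), 5 of 6 for endothelium (not Vwf), 6 of 7 for macrophages (not Cd163), 7 of 7 for capsule fibroblasts and 2 of 2 for red blood cells. Summed macrophage markers were 6643 to 9895 in controls, 7039 to 9289 after Ang II and 5882 to 9482 after potassium. Endothelial markers were 15664 to 19689, 16225 to 19560 and 16618 to 20130. Lyz2, with means of 6732, 6506 and 6306, made up most of the macrophage sum, which says little of the other markers. After potassium Mrc1 had a log2 fold change of 0.53 ± 0.16, Aif1 of -0.43 ± 0.20 and Csf1r of -0.31 ± 0.19. Summed levels overlapped between the groups for every list, and the limma test called no marker of these other cells in any comparison. With 0.532% to 3.09% of all tested probe sets called in a given direction, no call among so few markers is near the background. Among glomerulosa markers Mrap, an accessory protein of the ACTH receptor, rose after Ang II (log2 fold change 0.34) and potassium (0.44). The part of other cells in the results was not tested. In bulk RNA a change in the number of cells of a type and a change in RNA per cell cannot be told apart.

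Nr4a1 rose after both stimuli and reached like levels under each. Its probe set, 1386935_at, read 6084, 4906 and 8507 in the control tubes of preparations 1, 2 and 3. After Ang II it read 10119, 10724 and 12500, and after potassium 11968, 10533 and 11218. Every stimulated tube lay above every control tube, and the 2 stimulated groups overlapped. The group means were 6499 ± 1836 (SD, n = 3), 11114 ± 1238 and 11239.8 ± 718. Nr4a1 rose 1.75-fold after Ang II (log2 fold change 0.80 ± 0.11, SE; adjusted p = 5.0e-04) and 1.77-fold after potassium (0.82 ± 0.11; adjusted p = 2.0e-04). The direct difference, Ang II minus potassium, was -0.02 on the log2 scale, with a 95% interval of -0.25 to 0.21 (adjusted p = 0.96).

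Nr4a2, the member also required for midbrain dopamine neurons, rose after both stimuli and far more after potassium. The first probe set, 1369007_at, read 1529, 1536 and 2343 in controls, 2642, 3544 and 3099.8 after Ang II, and 7888, 6095 and 6624 after potassium. The second, 1387410_at, read 422, 438 and 645 in controls, 889.7, 947 and 1105 after Ang II, and 2735, 2359 and 2699 after potassium. At both probe sets the 3 groups formed separate steps with no overlap, with control lowest and potassium highest. After Ang II the increase was 1.73-fold at 1369007_at (log2 0.79 ± 0.14; adjusted p = 0.0052) and 1.95-fold at 1387410_at (0.97 ± 0.11; adjusted p = 1.3e-04). After potassium it was 3.84-fold (1.94 ± 0.14; adjusted p = 5.0e-07) and 5.13-fold (2.36 ± 0.11; adjusted p = 6.2e-09). The Ang II call at 1369007_at was lost, at adjusted p-values of 0.051 to 0.065, without control replicate 1, control replicate 2, Ang II replicate 2 or preparation 2. At 1387410_at the call was kept without any single array or preparation.

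Nr4a3 rose after both stimuli, and more after potassium, at 2 of its 3 probe sets. Its first probe set, 1369067_at, read 7375, 5621 and 5732 in controls, 9248, 8029 and 10792 after Ang II, and 13883, 13277 and 13932 after potassium. The next, 1393389_at, read 3126, 2516 and 3062, then 4299, 4008 and 4514, then 6569, 6066 and 6248. Both showed the same 3 separate steps as Nr4a2. Nr4a3 rose 1.498-fold and 1.475-fold after Ang II at these probe sets (log2 0.58 ± 0.09, adjusted p = 0.0019, and 0.56 ± 0.07, adjusted p = 3.1e-04). After potassium it rose 2.21-fold and 2.17-fold (1.14 ± 0.09, adjusted p = 1.4e-06, and 1.12 ± 0.07, adjusted p = 1.2e-07).

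The third Nr4a3 probe set, 1369217_at, read 693, 478 and 841 in controls, 989, 712 and 1009 after Ang II, and 1001, 1139 and 1416 after potassium. The Ang II tubes overlapped both other groups, while the potassium tubes lay above all controls. The potassium increase was called (1.78-fold, log2 0.83 ± 0.13, adjusted p = 0.0010). After Ang II the log2 fold change was 0.44 ± 0.13 and did not pass (adjusted p = 0.10), although it was positive in all 3 preparations. It passed without potassium replicate 2 (adjusted p = 0.0476) and with arrays scaled to their overall median (0.56, adjusted p = 0.042).

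**Figure D1:**
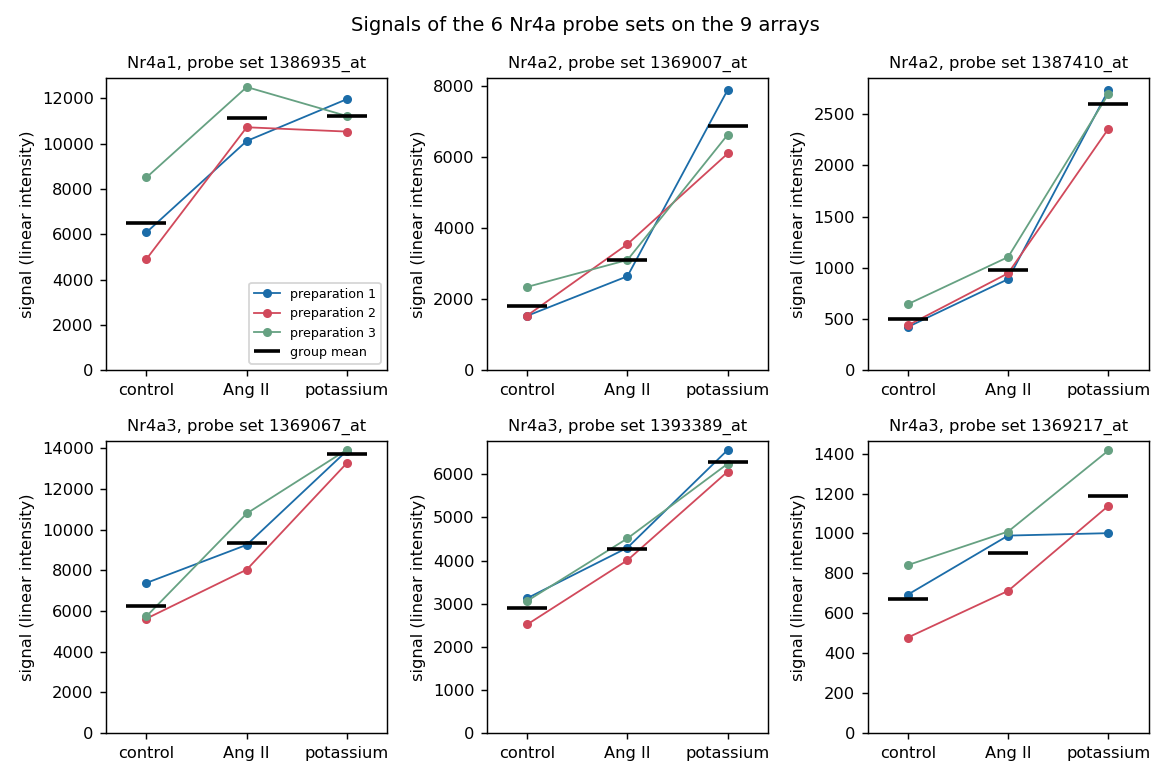
Signal (linear intensity, axes from 0) of the 6 Nr4a probe sets in control, Ang II and potassium tubes; points joined by a line are the 3 tubes of 1 cell preparation and black bars are group means (n = 3). Nr4a1 reached 11114 and 11239.8 under the 2 stimuli, while both Nr4a2 and 2 of 3 Nr4a3 probe sets stepped up from control to Ang II to potassium without overlap.

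Without an intensity trend in the variance prior, every Ang II call of the family was lost, at adjusted p-values from 0.0652 to 0.221, and so were the potassium calls of Nr4a1 and of 1369217_at.

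Counted together, 5 of the 6 probe sets passed as higher after Ang II and none as lower. Of all tested probe sets 1.66% passed as higher and 0.532% as lower. After potassium all 6 passed as higher, where 2.78% of all tested did (and 2.58% passed as lower). The median log2 fold change of the 6 was 0.69 after Ang II and 1.13 after potassium, beside -0.03 and -0.02 over all tested probe sets. In 5 of 6 cases all Ang II tubes lay above all control tubes, as 7.3% of all tested probe sets did, and in 6 of 6 cases all potassium tubes did, as 7.84% did. With arrays scaled to the median of all probe sets, the median of all fold changes moved up by 0.12 for each stimulus, and the members moved with it by 0.12. In that setting all 6 members passed after each stimulus. The calls over the whole table then split into 431 higher and 33 lower after Ang II, in place of 310 and 99, and into 722 and 177 after potassium, in place of 518 and 480.

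The 2 stimuli were set against each other directly to ask which members answered them unequally. Nr4a2 and Nr4a3 were lower after Ang II than after potassium, and Nr4a1 was not separated. In total 4 of 6 probe sets passed as lower and none as higher, where 1.7% of all tested passed as lower and 3.09% as higher. All 3 Ang II tubes lay below all 3 potassium tubes at those 4 probe sets, as at 9.06% of all tested. Ang II minus potassium was -1.15 ± 0.14 and -1.39 ± 0.11 on the log2 scale at the Nr4a2 probe sets (2.22 and 2.63 times higher after potassium; adjusted p = 1.3e-04 and 2.4e-06). It was -0.56 ± 0.09 and -0.56 ± 0.07 at the first pair of Nr4a3 probe sets (1.47 times higher after potassium at each; adjusted p = 0.00155 and 1.8e-04). Of these 4 calls only that of 1387410_at was kept without the intensity trend. The third Nr4a3 probe set gave -0.39 ± 0.13, which did not pass (adjusted p = 0.12), but passed without potassium replicate 1 (-0.56, adjusted p = 0.0389).

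**Figure D2:**
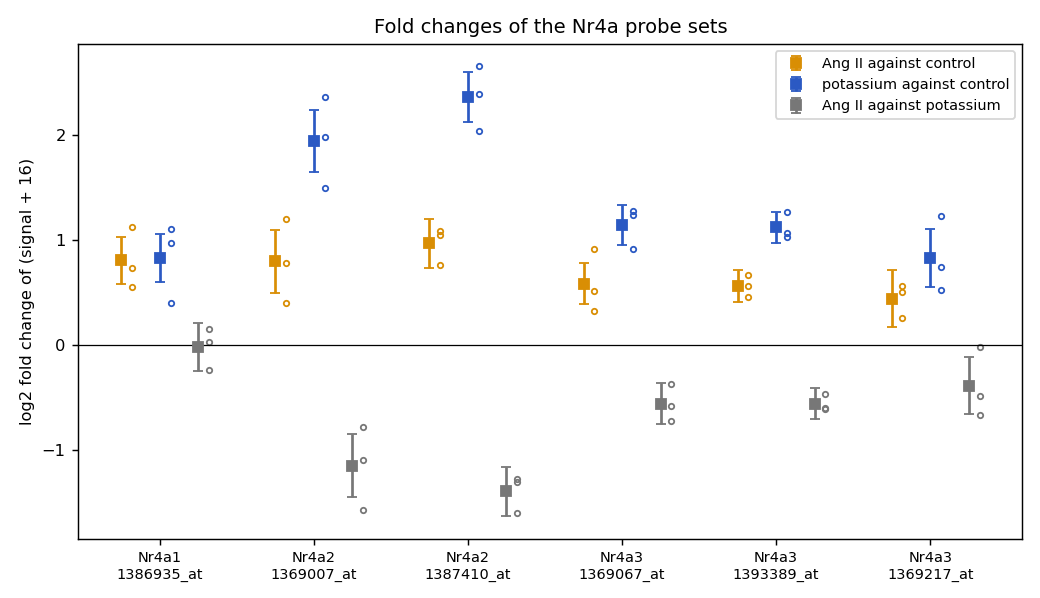
Log2 fold change of (signal + 16) at each Nr4a probe set in the 3 comparisons (each stimulus over control, and Ang II over potassium); squares are fitted values with 95% intervals and open circles the 3 preparations. The orange and blue squares coincide for Nr4a1 (0.80 and 0.82) and part for Nr4a2 (0.97 and 2.36 at 1387410_at).

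Averaged over the preparations, probe sets of a gene gave like proportions between the stimuli. The log2 fold change after Ang II was 97.6% of that after potassium for Nr4a1, 40.9% at each Nr4a2 probe set, and 51.1%, 50.1% and 53.2% at the Nr4a3 probe sets. These shares describe 1 set of control tubes used in both comparisons and carry no test. Single preparations scattered widely around some of them. For Nr4a1 the log2 fold changes in preparations 1, 2 and 3 were 0.73, 1.13 and 0.55 after Ang II. After potassium they were 0.97, 1.10 and 0.40. At 1369217_at they were 0.50, 0.56 and 0.26, then 0.52, 1.22 and 0.74. The probe set 1393389_at was steadier, at 0.46, 0.67 and 0.56, then 1.07, 1.26 and 1.03. Among the 18625 tested probe sets, the increase of 1387410_at after potassium ranked 4 from the top and that of 1369007_at ranked 14. The Nr4a3 probe sets ranked 72, 74 and 193, and Nr4a1 ranked 199. After Ang II the ranks were 67 and 144 for Nr4a2, 138 for Nr4a1, and 346, 388 and 700 for Nr4a3.

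**Figure D3:**
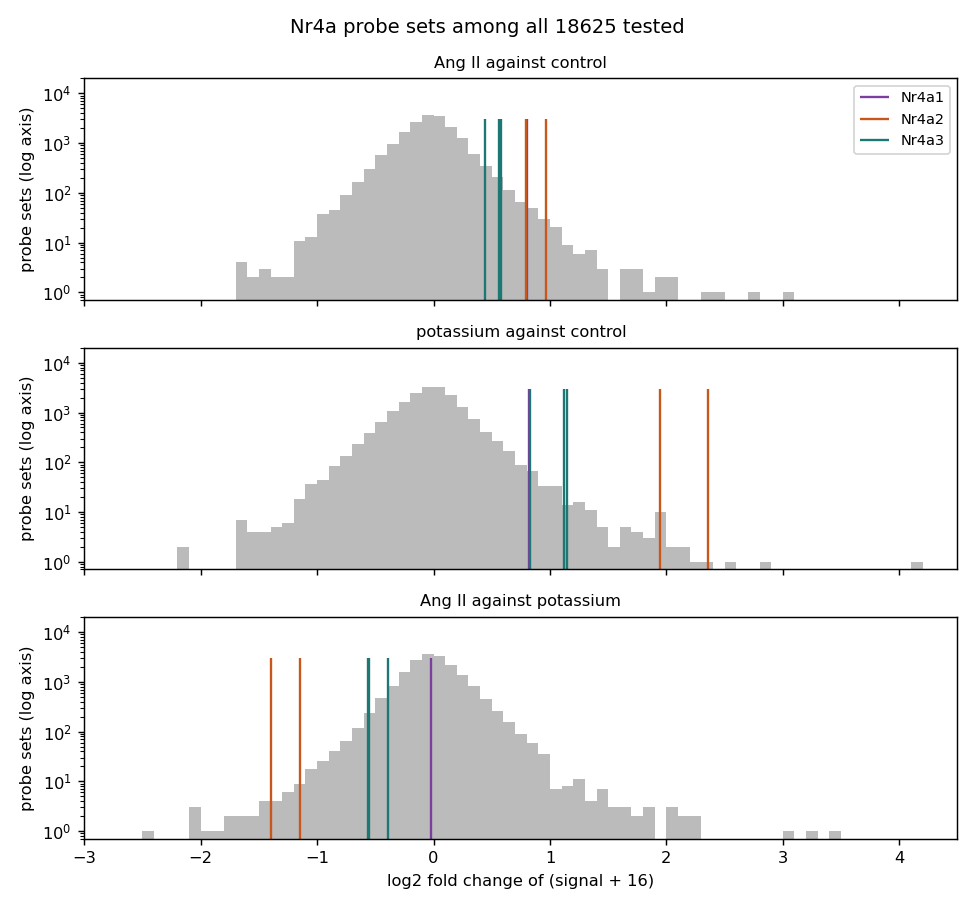
Histogram (log axis) of the log2 fold changes of all 18625 tested probe sets in each comparison, with the 6 Nr4a probe sets as vertical lines coloured by gene. After potassium the Nr4a2 lines stand at 1.94 and 2.36, in the upper tail, and in Ang II against potassium the Nr4a1 line stands at -0.02, in the middle.

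Responses of the genes were compared within each preparation, at the probe set with the highest mean signal. After potassium the log2 fold change of Nr4a2 exceeded that of Nr4a1 by 1.38, 0.88 and 1.09 in preparations 1, 2 and 3, a mean of 1.12 ± 0.25 (SD, n = 3). It exceeded that of Nr4a3 in all 3 preparations, and the mean of Nr4a3 minus Nr4a2 was -0.80 ± 0.62. Nr4a3 minus Nr4a1 was 0.32 ± 0.50 and changed sign between preparations. Both means hung on single preparations: without preparation 1 or 3, or the control or potassium tube of either, Nr4a3 minus Nr4a2 was -0.48 or -1.09 and Nr4a3 minus Nr4a1 was 0.51 or 0.037. After Ang II no difference kept its sign: Nr4a2 minus Nr4a1 was -0.01 ± 0.12, Nr4a3 minus Nr4a1 was -0.22 ± 0.51 and Nr4a3 minus Nr4a2 was -0.21 ± 0.63. Nr4a3 minus Nr4a1 was -0.41, -0.61 and 0.36 in preparations 1, 2 and 3. With 3 preparations the exact two-sided sign-flip permutation test cannot go below p = 0.25. That value was reached by both potassium differences of Nr4a2, and all adjusted p-values over the 6 comparisons were 0.75 or above.

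At every Nr4a probe set the preparations differed most at rest, by their coefficients of variation. The control tube of preparation 3 had the highest control signal at 4 of 6 probe sets, Nr4a1, both of Nr4a2 and 1369217_at, while that of preparation 2 had the lowest at 4 of 6. The potassium ratio of Nr4a1 was 1.97, 2.15 and 1.32 in preparations 1, 2 and 3, and that of Nr4a2 at 1369007_at was 5.16, 3.97 and 2.83. For Nr4a3 at 1369067_at it was 1.88, 2.36 and 2.43, with preparation 1 lowest. Control signals of Nr4a1 had a coefficient of variation of 28.3%, against 11.1% after Ang II and 6.39% after potassium. For Nr4a3 at 1369067_at these were 15.7%, 14.8% and 2.66%.

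Across the 9 arrays, after the mean of each preparation was subtracted, the 2 Nr4a2 probe sets correlated at 0.99 and the 3 Nr4a3 probe sets at 0.91 to 0.98. Nr4a2 and Nr4a3 correlated at 0.86 to 0.99, and Nr4a1 with the others at 0.78 to 0.85. These values describe arrays that share groups and preparations. By the same measure the genes most like Nr4a1, with equal levels under both stimuli, were Eif3a (r = 0.997), the MAP kinase phosphatase gene Dusp1 (0.988), Csnk1a1 (0.984), Kif22 (0.983) and Ints6 (0.982). Dusp1 had mean signals of 12264 in controls, 14866 after Ang II and 15176.5 after potassium. Eif3a, a translation initiation factor subunit, moved little, from 3352 to 3624 and 3622, a smaller change than that of Nr4a1.

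The genes most like Nr4a2 were Fam13c and the transcription factors Cebpb (r = 0.990 each) and Klf4 (0.986), then Rasgrp2 (0.985) and Sppl2a (0.984). Fam13c, with mean signals of 1048, 1672 and 3959.6 in control, Ang II and potassium tubes, had the widest steps of the 5. Cebpb went from 5084 to 5997 and 7569 and Klf4 from 4746 to 6759 and 9455. Most like Nr4a3 were the sterol regulator Insig1 (r = 0.996), the neurotrophin gene Bdnf (0.993), Get4 (0.992), Sec24d (0.989) and the AP-1 subunit Jun (0.985). Bdnf went from 328 to 562 and 1071, Insig1 from 3038 to 3518 and 4215, and Jun from 11602 to 13698 and 15975.5. Each of these genes was picked from 14027 to 14029 named probe sets for its correlation, so its values are a description. After Ang II limma called the increases of Dusp1, Ints6, Fam13c, Klf4 and Bdnf, and of none of the other correlated genes. After potassium it called all of the correlated genes except Eif3a, Csnk1a1, Rasgrp2 and Sec24d.

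Genes that act on Nr4a transcription were read from a list of 56, of which 45 had a tested probe set: CREB and its coactivators and kinases, MEF2 factors with their class II deacetylases, calcium and calmodulin kinases, calcineurin and NFAT, protein kinases A, C and D, and MAP kinases. After Ang II 2 rose and none fell, where 1.66% and 0.532% of all tested probe sets did. After potassium 2 rose and 3 fell, where 2.78% and 2.58% of all tested did. The list medians were 0.03 and -0.05 on the log2 scale, beside -0.03 and -0.02 over all tested probe sets. The genes that rose were Sik1 and Crem under each stimulus. Sik1, a kinase that restrains the CREB coactivators, rose from a signal of 499.8 ± 77.8 to 992 ± 148 after Ang II (SD, n = 3; log2 0.97 ± 0.14, SE) and 1761.5 ± 343 after potassium (1.78 ± 0.14). Crem, which encodes CREB-like activators and the repressor ICER, rose by 0.45 ± 0.08 and 0.69 ± 0.08 at the tested probe set with the highest mean signal, of 6. The Ang II call of Crem ended in 5 of 20 alternative settings: without Ang II replicate 1 or 2, without preparation 1 or 2, and without the intensity trend (adjusted p up to 0.24).

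The other 5 Crem probe sets had log2 fold changes of 0.35 to 1.35 after potassium and -0.08 to 0.76 after Ang II, and Ang II minus potassium was negative at all 6 and passed at 4. Sik1 was likewise higher after potassium than after Ang II (Ang II minus potassium -0.81 ± 0.14; adjusted p = 0.0033). The genes that fell after potassium were the serum response factor Srf (-0.60 ± 0.09; adjusted p = 5.9e-04), the protein kinase C isoform Prkcd (-0.49 ± 0.08; adjusted p = 0.0012) and Mapk7, the ERK5 kinase that activates MEF2 factors (adjusted p = 0.015), which was chosen after its values were seen, to complete the count. Mapk7 had signals of 156 ± 70.5 in controls, 153 ± 25.9 after Ang II and 38.9 ± 26.5 after potassium (SD, n = 3). The last lies below the filter level of 81.9, so Mapk7 passed the filter through the other groups, and no fold is given for it. Srf (0.66 ± 0.09), Prkcd (0.66 ± 0.08), Sik3 (0.38 ± 0.08) and Mapk7 were higher after Ang II than after potassium. They were 4 of the 45 tested genes, and 1 passed as lower, where 3.09% and 1.7% of all tested probe sets did. The call of Sik3 ended in 9 of 20 alternative settings. At the other tested probe sets of Sik3 and Srf, Ang II minus potassium was 0.21 and 0.33 and did not pass (adjusted p = 0.62 and 0.54). Of the MEF2 and CREB factors themselves none was called after either stimulus except Crem.

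Among other nuclear receptors the share called after each stimulus was near that of all tested probe sets. Of 45 receptors listed, 28 had a tested probe set. After Ang II none passed the limma test (4 had an unadjusted p under 0.05), and after potassium 1 rose and 1 fell, beside 1.66% higher and 0.532% lower over all tested after Ang II and 2.78% and 2.58% after potassium. The list had medians of -0.07 and 0.04. Rora, a receptor that also binds DNA as a monomer, rose from 1952 ± 187 to 3648 ± 332 after potassium (SD, n = 3; log2 0.90 ± 0.12, adjusted p = 1.9e-04), and was lower after Ang II than after potassium (-0.55 ± 0.12). The clock receptor Nr1d1 fell after potassium (-0.35 ± 0.09, adjusted p = 0.0397). Of 20 alternative settings, 13 lost it. Of the 28, 2 passed as higher after Ang II than after potassium and 1 as lower, where 3.09% and 1.7% of all tested did. Nr1d1 (0.37 ± 0.09) and the glucocorticoid receptor Nr3c1 (0.49 ± 0.11) were the higher ones, and these calls ended in 9 and 10 settings. That of Rora against Ang II ended in 6. The other tested probe set of Rora, which is dim, gave 0.21 after potassium and 0.30 for Ang II minus potassium, and neither passed.

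Nr5a1, the steroidogenic factor of the adrenal cortex, had log2 fold changes of -0.07 ± 0.08 after Ang II and 0.17 ± 0.08 after potassium and was not called. Its other tested probe set, which is dim (mean signal 165), gave 0.07 after Ang II and 0.89 after potassium. Ang II minus potassium was -0.82 there. None of these passed limma's test (adjusted p = 0.95, 0.145 and 0.21). Esrrb, which is dim, had the largest positive value after Ang II among these receptors, 0.85 ± 0.24 (adjusted p = 0.093). Partners and modifiers of the Nr4a proteins, such as RXRs, coactivators, corepressors and Akt kinases, had 18 of 24 listed genes tested, and none passed limma's test in any of the 3 comparisons (1, 4 and 2 had an unadjusted p under 0.05 for Ang II, potassium and Ang II against potassium). With 0.532% to 3.09% of all tested probe sets called in a given direction, 0 of 18 is near the background. Rxrb was at -0.41 ± 0.18 after Ang II and -0.40 ± 0.18 after potassium, and Med1, a Mediator subunit that contacts nuclear receptors, at -0.41 ± 0.12 after potassium (adjusted p = 0.070). The call of Med1 appeared in 3 of 20 alternative settings. The other tested probe sets of Med1 gave 0.03 and 0.29 after potassium.

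**Figure D4:**
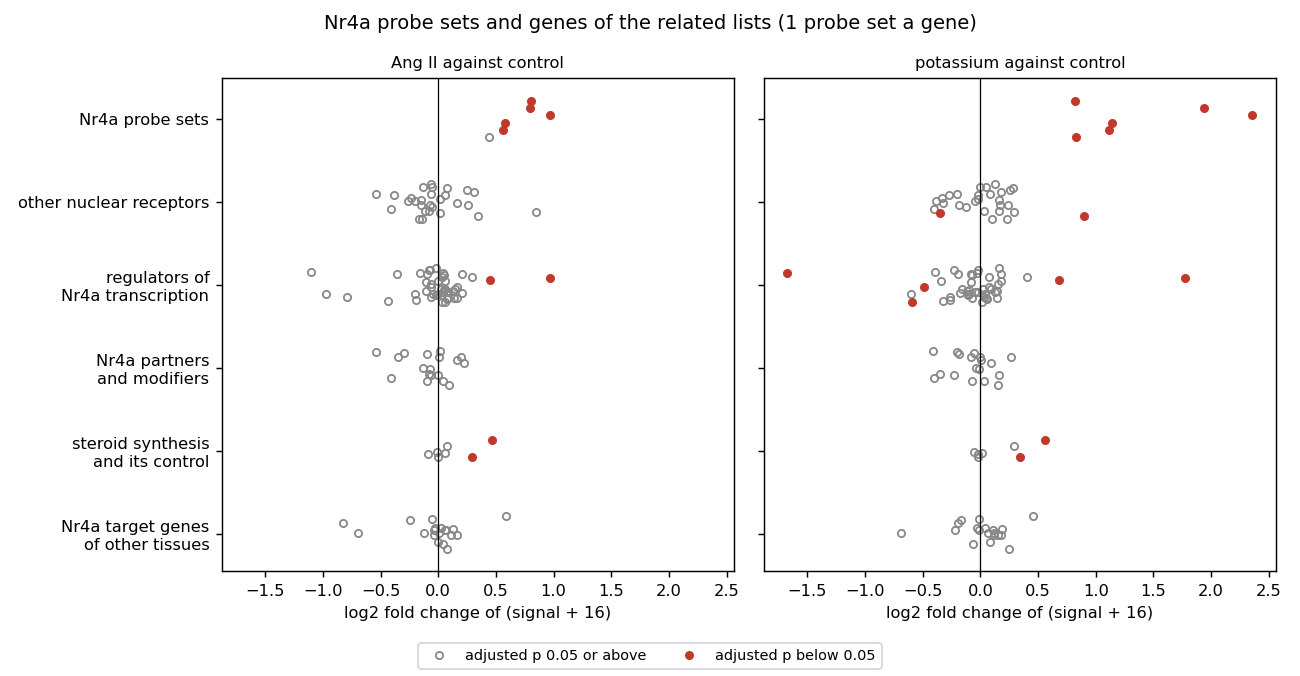
Log2 fold change of (signal + 16) after Ang II and after potassium for the 6 Nr4a probe sets and for the genes of 5 related lists, 1 probe set a gene; filled red points have a limma adjusted p below 0.05. All Nr4a points lie to the right of 0, from 0.44 to 2.36, while most genes of the other lists lie within 0.5 of 0.

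Genes that the Nr4a receptors are known to act on, or that belong to the same pathway, were read from another pair of lists. In the list of adrenal steroid synthesis and its control, 7 of 12 genes had a tested probe set, and 2 rose and none fell after each stimulus, where 1.66% of all tested rose after Ang II and 2.78% after potassium. They were Scarb1, the HDL receptor (0.46 ± 0.07 after Ang II and 0.56 ± 0.07 after potassium), and Star, the mitochondrial cholesterol carrier (0.29 ± 0.06 and 0.34 ± 0.06). The Ang II call of Star ended in 11 of 20 alternative settings. At the other Star probe set the Ang II increase was 0.22 and did not pass (adjusted p = 0.12). Neither gene was separated between the stimuli, at -0.10 ± 0.07 and -0.05 ± 0.06 for Ang II minus potassium. No promoter window was available for Star, Scarb1, Cyp11b1, Cyp11b2 and Cyp17a1, so these genes were not searched for an NBRE. The windows of Hsd3b1, Hsd3b2, Cyp11a1, Mc2r and Pomc held none. An NBRE, present in 1.24% of promoters, was found in the 250 bases before the start of Cyp21a1 and of Akr1b7. It lay 217 bases upstream of Cyp21a1, the 21-hydroxylase gene, and 48 bases upstream of Akr1b7, an aldose reductase-like enzyme gene. Neither was called: Cyp21a1 had log2 fold changes of -0.09 ± 0.06 after Ang II and -0.02 ± 0.06 after potassium, and Akr1b7 0.06 ± 0.05 and 0.01 ± 0.05. Their control signals were 20780.1 ± 1058 and 28312 ± 1030 (SD, n = 3), on arrays whose highest signals were 33568 to 42803.

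In a list of 30 genes known as Nr4a targets in other tissues, such as dopamine neurons, muscle and liver, 19 had a tested probe set and none passed limma's test after either stimulus, while 3 had an unadjusted p under 0.05 after each. With 1.66% higher and 0.532% lower over all tested after Ang II, and 2.78% and 2.58% after potassium, 0 of 19 is near the background. The dopamine synthesis gene Th was at 735 ± 67.0 in controls, 676 ± 101 after Ang II and 777 ± 155 after potassium. Th was also among the listed medulla markers, and which cells gave its signal was not tested. Ucp2, a mitochondrial carrier, was at 4563 ± 121, 4463 ± 249 and 5196 ± 653. The smallest p-values of this list after Ang II came from genes with mean control signals of 122 to 156, Lpin1 (0.59 ± 0.23 after Ang II, adjusted p = 0.24), Ucp3 (-0.82 ± 0.34, adjusted p = 0.27) and Slc18a2 (-0.69 ± 0.31, adjusted p = 0.31). The other tested probe sets of Lpin1 and Ucp3 had the opposite sign after Ang II, at -0.09 and 0.10. The mean of Ucp3 after Ang II, 64.1, lies below the filter level of 81.9, so Ucp3 passed the filter through the other groups.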

How the data were processed

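Each array came with a single deposited signal for every probe set, an intensity on a linear scale that the authors made with GCOS, per the submitters' processing notes. How it subtracted background and combined probes was not stated in what was used here. Without its lowest and highest 2%, each array had a mean of 500.17 to 500.19. The 57 control probe sets were left out. Symbols came from the platform annotation, updated by Entrez identifier with RefSeq genes of GRCr8: 20826 probe sets had 1 symbol, 436 several and 9780 none. Probe sets with a mean log2(signal + 16) above the 40th percentile (18625) were tested with limma 3.58.1 in R 4.3.3 (intensity trend, 3 groups and preparation as replicate block, 4 residual and 10.7 prior degrees of freedom) and adjusted by Benjamini-Hochberg, threshold 0.05. The script was tested on simulated data. The preparation pairs the tubes by the study's design text; deviations from group means correlated at 0.09 to 0.27 within and -0.21 to 0.05 between preparations. Each list named up to 4 genes with the smallest p per comparison, at the probe set with the highest mean, and each Nr4a gene the 5 most correlated genes. Members and lists were chosen with earlier results of these data known. Alternatives covered the constant, the filter, scaling, block, trend and leaving out arrays or preparations.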

Additional observations from a re-analysis of the deposited data

How the results depend on the processing

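The Nr4a fold changes and those of the list genes with the 4 smallest p-values of a comparison were recomputed in 20 alternative settings (19 for 9 values of genes that a stricter filter left out), and the differences between Nr4a genes in 16. Mapk7, Mrap and the other fold changes were not. All Nr4a increases kept their direction in each of the 20. The setting that ended most calls was the variance prior without an intensity trend, with 2.67 in place of 10.7 prior degrees of freedom. After Ang II it left 0 of the 6 probe sets called, with log2 fold changes of 0.80 for Nr4a1 (adjusted p = 0.15), 0.79 and 0.97 for Nr4a2 and 0.58 and 0.56 for Nr4a3. It left 1 of 6 for Ang II against potassium, with -1.15 for Nr4a2 at 1369007_at and -0.56 at both Nr4a3 probe sets no longer called. After potassium it ended the calls of Nr4a1 (0.82, adjusted p = 0.0695) and of Nr4a3 at 1369217_at (0.83, adjusted p = 0.0689), with 4 of 6 kept. It left 38, 258 and 156 calls over the table for Ang II, potassium and Ang II against potassium, and 0, 1 and 0 list genes. Without the replicate block 197, 506 and 442 were called over the table and 2 and 5 list genes in the first and the third comparison, and no Nr4a call was lost. Scaling to the median gave 557 for Ang II against potassium, brought 1369217_at past the threshold after Ang II (0.56), and turned Cyp21a1 after Ang II (0.031) and Cyp11a1 after potassium (0.065).

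Leaving out single arrays or preparations gave 143 to 454 calls after Ang II, in place of 409, 432 to 977 after potassium, in place of 998, and 275 to 1012 for Ang II against potassium, in place of 892. Each lowest count was reached without preparation 1. After Ang II the count moved by over 1.5 times without any 1 preparation, without any Ang II array (211 to 233) and without control replicate 2 (244). After potassium it did so without any 1 preparation, any control array (611 to 661) or potassium replicates 1 or 2 (591 and 579), and for Ang II against potassium without any 1 preparation, any Ang II array (430.0 to 576) or potassium replicates 1 or 2 (516 and 549). For the list genes the counts were 2 to 5 after Ang II, in place of 4, and 2 to 9 for Ang II against potassium, in place of 8. The Ang II log2 fold change of Nr4a2 at 1369007_at was 0.59 to 1.00 and that of Nr4a3 at 1369217_at 0.31 to 0.53, and the latter was -0.57 to -0.22 for Ang II against potassium. Some Nr4a values near 0 changed sign: Nr4a1, Ang II against potassium, was -0.17 to 0.091, Nr4a2 minus Nr4a1 after Ang II -0.051 to 0.061 (0.012 with quantile normalization) and Nr4a3 minus Nr4a2 after Ang II -0.57 to 0.026. After potassium Nr4a3 minus Nr4a2 was -1.09 to -0.48 and Nr4a3 minus Nr4a1 0.037 to 0.51. Signal over background was not judged, since detection calls were not used.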
